A study of Mus musculus with 2 samples.

Results

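Integrins, laminins and the other structural genes of the basement membrane were examined in the embryonic mouse ureter with and without a functional Pparg gene in the ureteric epithelium. The set holds the integrin alpha and beta subunit genes (Itga and Itgb), the laminin alpha, beta and gamma chain genes (Lama, Lamb and Lamc), and Nid1, Nid2, Hspg2, Agrn and Dag1. The genes were taken by name from the array's own annotation, and no measured value entered the choice. They comprised 43 of the 29982 genes on the array, read by 62 of 39381 probes. Of these, 37 genes were above background in the same RNA of both arrays and entered the statistical test, as did 21429 genes in all, and 33 reached a signal of 100 on both arrays.

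Total RNA came from pools of sex-sorted E16.5 ureters of NMRI mice and was measured on 2 dual-colour oligonucleotide arrays. On each array a Pparg-cKO pool (Pax2-cre/+; Pparg(fl/fl)) was hybridised together with a control pool (Pparg(fl/?)) of the same sex, with female pools on array 1 and male pools on array 2. The floxed Pparg allele is common to mutants and controls, and the Pax2-cre line recombines in the nephric duct, the ureteric epithelium and the collecting ducts, so the mesenchyme of the mutant ureter keeps its Pparg gene. The labels give E14.5 as the stage of the mutant pools, whereas titles and protocol give E16.5. Dyes were exchanged between the arrays, so dye and sex changed together and cannot be told apart. Each array was 1 ratio of 2 pools, and p-values therefore rest on the spread between 2 arrays.

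The dye labels and the direction of the study's own account do not match, and no genotype is assigned here. RNA A stands for the pool in the red dye (AlexaFluor647) on array 1 and in the green dye (AlexaFluor555) on array 2, and RNA B for its partner on either array. The labels make RNA A the control, and the study's account makes it Pparg-cKO. The targeted gene, Pparg, was read at 11295 for RNA A against 7430 for RNA B in the female pools, and at 12888 against 7872 in the male pools. Its log2 ratio of RNA A over RNA B was 0.60 and 0.71, with 0.66 ± 0.076 as the mean (SD, n = 2 arrays). Whether its probe lies outside the deleted exons was not analysed here, so it does not settle the labels.

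The basement membrane is a sheet of extracellular matrix under every epithelium and around muscle cells, vessels and nerves. Laminins, heterotrimers of an alpha, a beta and a gamma chain, polymerise into its first network, and nidogens, perlecan (Hspg2) and agrin (Agrn) tie this network to collagen IV and to the cell surface. Cells bind it through integrins, which are dimers of an alpha and a beta subunit, and through dystroglycan (Dag1). In stratifying epithelia such as the urothelium, the integrin of the alpha6 and beta4 subunits anchors basal cells to laminin in hemidesmosomes.

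Transcripts for most of the set were present in these ureters, and none of its genes differed between RNA A and RNA B in the same direction by 1.5-fold on both arrays. The filter of the study, at least 1.5-fold on each array with a signal of at least 100, was passed by 0 of the 33 genes with enough signal in favour of RNA A and by 0 in favour of RNA B. Among all 15008 genes with enough signal it was passed by 0.313% and 0.460%. By limma with Benjamini-Hochberg adjustment, 0 of 37 genes were called in either direction, beside 0.126% of all tested genes called in favour of RNA A, and 0.187% in favour of RNA B. These 27 and 40 genes became 1 and 0 with normexp background correction and loess normalisation, and 0 and 0 with the processed ratios that the authors deposited. No gene of the set had an unadjusted limma p under 0.05 either, compared with 3.78% of all tested genes, and the lowest was 0.152, for Itga3. At these background rates a set of this size is not expected to hold a call, so the counts of 0 are no result about these genes in particular.

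The width of the intervals limits what the absence of calls can show. The 95% interval of the mean log2 ratio by limma reached a median of 0.48 to either side over the 37 genes. For 36 of them the whole interval lay within 2-fold in either direction, and for Lama5 it ran from -1.33 to 0.26. Differences smaller than these widths were not detectable with 2 arrays. The intervals are not adjusted for the 21429 genes tested, so larger differences could also go without a call. Pparg, with a mean log2 ratio of 0.66, had an adjusted limma p of 0.615 and was not called by limma. The intervals use a spread that limma shares across all tested genes, so they are narrower than the 2 ratios of a gene such as Itgb4 would give alone.

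**Figure D1:**
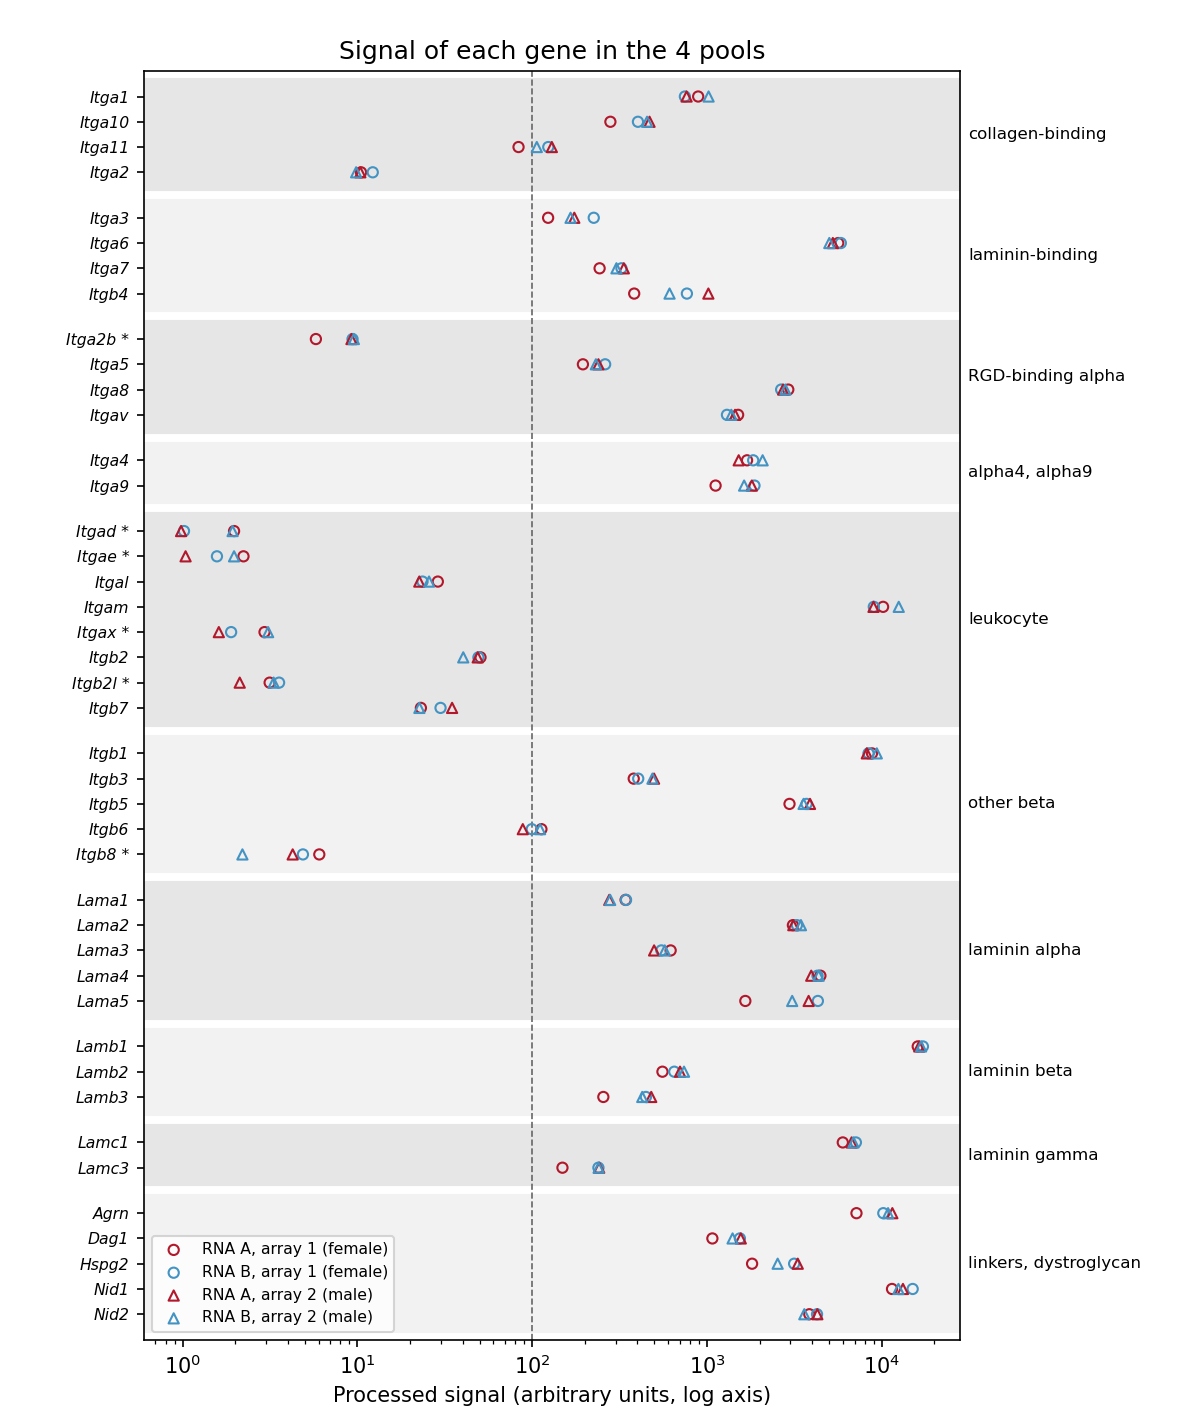
Processed signal (arbitrary units, log axis) of 42 of the 43 genes in the 4 pools, with circles for array 1, triangles for array 2, red for RNA A and blue for RNA B; the dashed line marks a signal of 100 and asterisks mark the 6 genes not above background. Signals of different genes come from different probes and are not comparable as levels. The 4 points of most genes lie close together, whereas those of Itgb4 and Lama5 spread out.

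Described by dye, the genes of the set leaned towards green. Of the 37 tested genes, 21 were brighter in the green channel on both arrays, that is, in RNA B on array 1 and in RNA A on array 2. This is 56.8%, where 32.6% of all tested genes had that pattern. A further 8 genes were brighter in red on both arrays (28.4% of all tested genes), 6 were brighter in RNA B on both (17.4%) and 2 were brighter in RNA A on both (21.6%). The medians of the log2 ratio of RNA A over RNA B were -0.22 on array 1 and 0.07 on array 2, against -0.00038 and 0.03 over all tested genes. The median of the mean ratio was -0.11, against 0.01. Whether the dye or the sex of the pools went with this pattern cannot be told apart, and the members are not independent of each other, so no test was made of the share.

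A count on a single array shows the same asymmetry. On array 1, 7 tested genes of the set (Hspg2, Itga3, Itga9, Itgb4, Lama5, Lamb3 and Lamc3) were at least 1.5-fold brighter in RNA B, compared with 4.91% of all tested genes. On array 2, 3 genes, Itgb4 and Itgb7 among them, were at least 1.5-fold brighter in RNA A, compared with 3.47% of all tested genes. Itgb4 is in both counts.

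**Figure D2:**
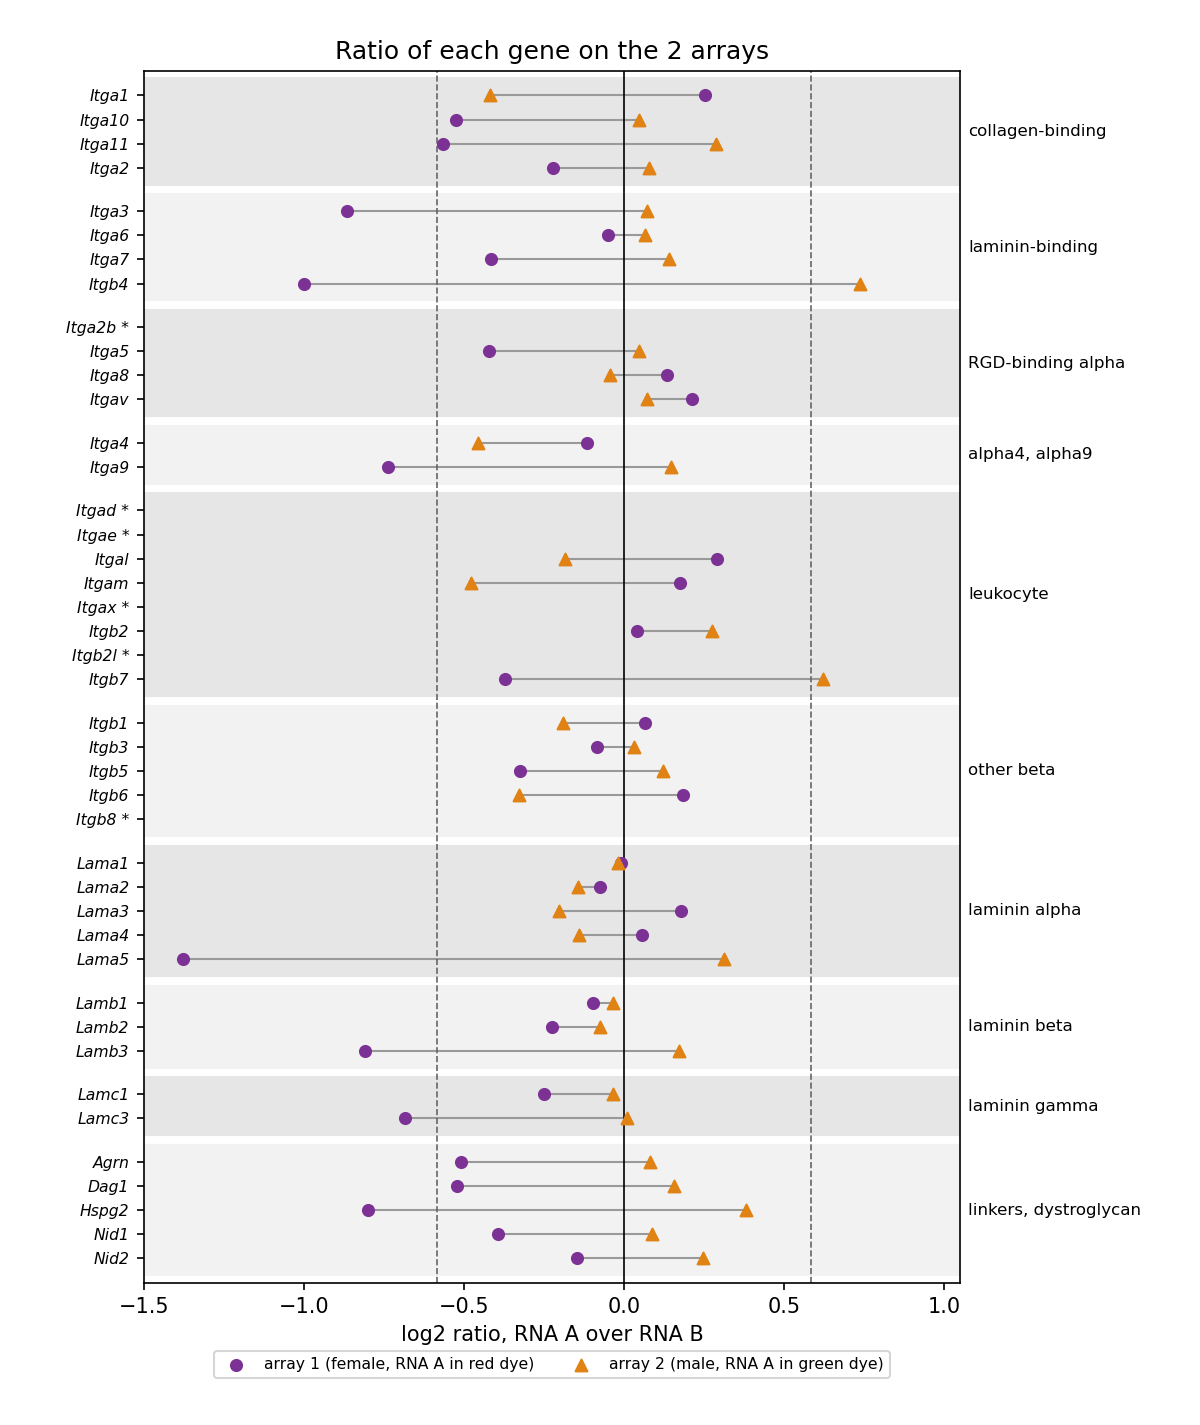
Log2 ratio of RNA A over RNA B on array 1 (purple circles) and array 2 (orange triangles) for 36 of the 37 tested genes, grouped by role; the 6 genes with asterisks were not above background and have no symbols, and dashed lines mark 1.5-fold. For no gene do both symbols lie beyond the same dashed line, and for 20 of those plotted the circle is below 0 and the triangle above.

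Among the tested genes of the set, the widest disagreement between the arrays was in a laminin-binding integrin. Itgb4, the beta subunit of the hemidesmosomal integrin, had a single probe, whose position on build mm9, used throughout, is chromosome 11, 115869666 to 115869725. Its signals were 383 for RNA A against 767 for RNA B in the female pools, then 1018 against 611 in the male pools. The order of the 2 RNAs thus turned between the arrays, with RNA B 2.00-fold brighter on array 1 and RNA A 1.67-fold brighter on array 2. The log2 ratios were -1.0 and 0.74, while the replicate spots of the probe within an array had an SD of 0.046 and 0.042. Among the genes of the set with enough signal, only Itgb4 was past 1.5-fold in opposite directions on the arrays, a pattern met by 0.860% of the 15008 genes with enough signal. The mean ratio was -0.13 ± 1.2 (SD, n = 2 arrays).

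Itga3, whose product pairs with beta1 to bind laminin, had signals of 123 for RNA A against 225 for RNA B in the female pools, then 174 against 166 in the male pools. RNA A on array 1 was the lowest of the 4 values and RNA B on the same array the highest. The mean over both arrays was -0.40 ± 0.66 on the log2 scale (SD, n = 2), with a limma adjusted p of 1.00. For Itga7, the laminin receptor of muscle, RNA B was likewise the brighter on array 1 and RNA A on array 2. It gave 243 against 324 in the female pools and 334 against 303 in the male pools. Itga6, the partner of Itgb4, had that order too, but with small ratios. The probe with the highest signal gave 5631 against 5827 in the female pools and 5245 against 5007 in the male pools. Its log2 ratios were -0.05 and 0.07. The partners of the hemidesmosomal integrin therefore had unlike ratios, on this reading of Itga6.

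Itga6 was also the gene whose probes differed most on array 2. The probe above starts at base 383 of an Ensembl transcript and lies at chromosome 2, 71690633 to 71690692. The other starts at base 4289 of the RefSeq transcript and lies at chromosome 2, 71694756 to 71694815. It gave signals of 2474 for RNA A against 2439 for RNA B in the female pools, then 3476 against 2035 in the male pools. Its log2 ratio was 0.02 for females and 0.77 for males, so the 2 probes gave like values in the female pools and differed by 0.71 in the male pools. With the second probe, Itga6 came close to the 0.74 of Itgb4 in the male pools but not in the female pools. The stretches of 30 bases below are shown because the choice between these probes decides the value of Itga6, and capitals mark a run of the triplet TTG in the second.
Itga6, base 383, bases 1 to 30 of the probe: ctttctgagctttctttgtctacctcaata
Itga6, base 4289, bases 16 to 45 of the probe: ggaggtcTTGTTGTTGTTGTTGttctgacc
Runs of at least 5 copies of TTG, or of CAA on the other strand, occurred in 16 of the 39381 probes (0.0406%). What the run does to the signal was not tested.

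Among the collagen-binding integrins, Itga1 was one of the few genes brighter in red on both arrays. Its product pairs with beta1 and is found in smooth muscle and mesenchymal cells. Signals were 890.1 for RNA A against 747 for RNA B in the female pools, then 764 against 1021 in the male pools, with log2 ratios of 0.25 and -0.42. Itga10 and Itga11, collagen receptors of cartilage and fibroblasts, ran the other way. Itga10 gave 280.1 against 403 in the female pools and 469 against 454 in the male pools, and Itga11 gave 83.6 against 124 and then 129.6 against 106. Itga2 was near background, with signals between 9.84 and 12.2. By the probes with the highest signal, none of the 4 reached 1.5-fold on either array, and the second probe of Itga10 had a log2 ratio of -0.70 on array 1, past that size.

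Of the integrin alpha subunits that bind the RGD motif of fibronectin, vitronectin and nephronectin, 3 were above background and none reached 1.5-fold on either array. Itga8, the nephronectin receptor needed for ureteric bud outgrowth, gave 2916 against 2655 in the female pools and 2726 against 2807 in the male pools. Itgav gave 1506 against 1300.4 in the female pools and 1447 against 1377 in the male pools. By the probes with the highest signal, it was the only gene of the set over 100 that was brighter in RNA A on both arrays. The second probe of Itga6 had that order too. The log2 ratios of Itgav, 0.21 and 0.07, are small, and its second probe gave 0.39 and -0.16. Itga5, the fibronectin receptor subunit, gave 195 against 261 in the female pools and 239 against 231 in the male pools. Itga2b, the platelet subunit, was not well above background.

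Itga4 and Itga9 encode related alpha subunits that bind fibronectin variants, osteopontin, tenascin and VCAM. Itga4 signals were 1694 for RNA A against 1837 for RNA B in the female pools, then 1518 against 2080.0 in the male pools. By this gene's probe with the highest signal, RNA B was the brighter on both arrays, with log2 ratios of -0.12 and -0.45. The mean of -0.29 ± 0.24 (SD, n = 2 arrays) was the most negative among the tested genes with 1 order on both arrays. Its limma unadjusted p was 0.198. Itga9 had a mean of nearly the same size, -0.30, but from 1119 against 1868 in the female pools and 1805 against 1630.2 in the male pools, with the order of the RNAs turned. A dim second probe of Itga4 gave log2 ratios of 0.11 on array 1 and -0.88 on array 2. The single order of Itga4 therefore rests on its brighter probe.

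By the probes with the highest signal, the other beta subunits above background had small ratios on both arrays. Itgb1, the common partner of the collagen, laminin and fibronectin receptors, gave 8782 against 8387 in the female pools and 8204 against 9356 in the male pools, and its mean was -0.06 ± 0.18 as log2 ratio (SD, n = 2 arrays). Itgb5, an alpha v partner, gave 2964 against 3711 in the female pools and 3882 against 3568 in the male pools. Itgb3 ranged from 381 to 498 and Itgb6, the epithelial alpha v partner, from 88.4 to 113. The second probe of Itgb6 gave log2 ratios of 0.40 and -0.60, and a dim second probe of Itgb3 gave -0.27 and -0.64. Both were past 1.5-fold on array 2. Itgb8 was not well above background in these ureters.

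The leukocyte integrins were dim. Itgad, Itgae, Itgax and Itgb2l were not well above background, and Itgal, Itgb2 and Itgb7, which encode subunits of lymphocyte and myeloid integrins, had signals between 22.6 and 50.6. Itgb2, the beta subunit of the leukocyte integrins, was brighter in RNA A on both arrays, with 50.6 against 49.3 in the female pools and 48.8 against 40.3 in the male pools. Of the leukocyte and macrophage markers, 8 of 8 were above background and 5 were brighter in RNA A on each array. The median log2 ratio of the list was 0.18. Their signals summed to 7448 and 7795 in RNA A and to 6141 and 6755 in RNA B. The part of leukocyte content in the Itgb2 value was not tested, and in bulk RNA, fewer cells of a type and less RNA per cell cannot be told apart.

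Itgam, the alpha subunit of the macrophage integrin, was the exception among them and depended on the probe. One probe, at base 4431 of the transcript (chromosome 7, 135261755 to 135261814), gave signals of 10164 against 8995 in the female pools and 8959.8 against 12492 in the male pools. The other 2 probes gave signals between 14.5 and 24 in all 4 pools. The first 30 bases of the 3 probes are shown because the bright one opens with a simple repeat, and capitals mark its run of 10 copies of CA.
Itgam, base 270: tgttaaccagacaggtgccctctaccagtg
Itgam, base 3410: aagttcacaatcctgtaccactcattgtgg
Itgam, base 4431: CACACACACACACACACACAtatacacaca
At least 8 copies of CA in a row, or of TG on the other strand, occurred in 101 of the 39381 probes (0.256%), and 88 of these 101 had a mean signal over 1000, or 87.1%, where 25.1% of all probes did. The bright signal of Itgam was therefore not read as a level of its transcript. The counts above still include Itgam by this probe, among the 33 genes with enough signal and the 8 brighter in red on both arrays. Without probes of this kind, the mean log2 ratio of Itgam was 0.18 instead of -0.15.

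Laminin alpha chains differed in how far the arrays disagreed. Lama5, the main alpha chain of mature epithelial and vascular basement membranes, had signals of 1656 for RNA A against 4306 for RNA B in the female pools, then 3813 against 3070.0 in the male pools. RNA A of the female pools was the low value, 2.60-fold below its partner, and on array 2 the order turned, with RNA A 1.24-fold above. The log2 ratios were -1.38 and 0.31 with an SD over spots of 0.022 and 0.029, and the mean was -0.53 ± 1.2 (SD, n = 2 arrays), with a limma unadjusted p of 0.163. This was the lowest mean of the set, and it rests on array 1. The probe lies at chromosome 2, 179911079 to 179911138.

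The other alpha chains did not share this. Lama1, the chain of early epithelia, had signals of 342 against 344 in the female pools and 276 against 279 in the male pools, with log2 ratios of -0.01 and -0.02. Lama2, the chain of muscle and mesenchyme, gave 3099 against 3267 in the female pools and 3116 against 3445 in the male pools. Lama4, a chain of vessels and mesenchyme, gave 4452 against 4285 in the female pools and 3946 against 4351 in the male pools. Lama3, the chain of the anchoring laminin of stratified epithelia, gave 619 against 548 in the female pools and 498 against 573 in the male pools. All 4 had mean log2 ratios between -0.11 and -0.01.

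Beta and gamma chains fell into a steady and a variable group. Lamb1 and Lamc1, which form the most widespread laminins, gave log2 ratios of -0.10 and -0.03 and of -0.25 and -0.04. Lamb1 signals were 16044 against 17174 in the female pools and 16367 against 16766 in the male pools, and those of Lamc1 were 5978 against 7105 and then 6714 against 6883. Lamb2, the chain of muscle and of the glomerulus, gave 556 against 649.9 in the female pools and 701 against 739 in the male pools. RNA B was the brighter on both arrays for Lamb1, Lamb2 and Lamc1, by less than 1.5-fold in each case.

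Lamb3 and Lamc3 varied more between the arrays. Lamb3 had signals of 255 against 447 in the female pools and 479.7 against 426 in the male pools, with RNA A of the female pools as the low value. Lamc3 had 149 against 239 in the female pools and 242 against 239.9 in the male pools. Lama3 and Lamb3, which encode chains of the same anchoring laminin, had unlike ratios, at 0.18 and -0.81 on array 1 and -0.20 and 0.17 on array 2. Likewise Lama5 stood apart from Lamb1 and Lamc1, with which it forms a laminin.

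**Figure D3:**
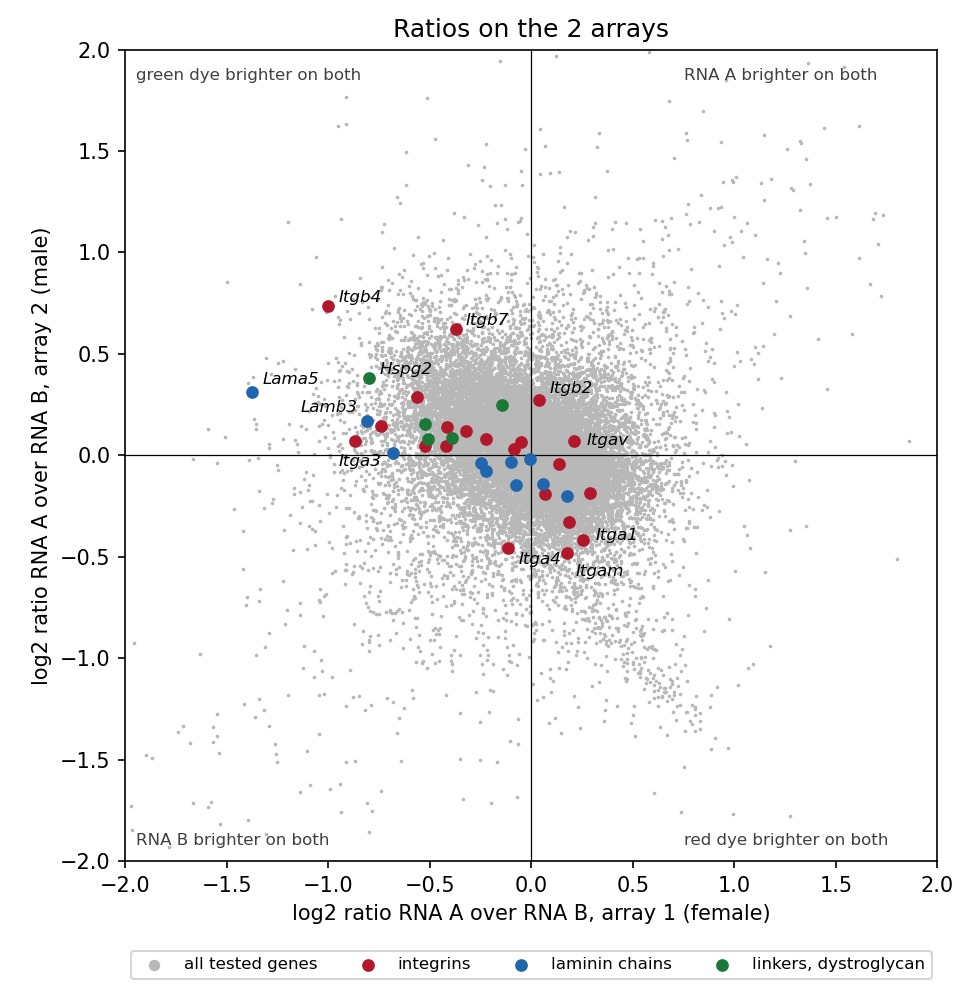
Log2 ratio of RNA A over RNA B on array 1 (x axis) and array 2 (y axis) for all tested genes (grey) and for 36 tested genes of the set, which are integrins (red), laminin chains (blue) and linkers with dystroglycan (green); 36 of the 21429 tested genes lie outside the axes. Genes that differ in the same way on both arrays lie at the lower left or upper right, and most genes of the set lie in the upper left, with Itgb4 and Lama5 far from the centre.

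By the probes with the highest signal, the linkers and dystroglycan all leaned towards green. The second probe of Hspg2 did so too. The other probes of Nid1 were brighter in red on both arrays, and a dim second probe of Agrn was brighter in RNA B on both. Hspg2, which encodes perlecan, had signals of 1811 for RNA A against 3150.1 for RNA B in the female pools, then 3304 against 2535 in the male pools. Agrn gave 7159 against 10192 in the female pools and 11482 against 10854 in the male pools. Dag1, the laminin and perlecan receptor outside the integrin family, gave 1073 against 1541 in the female pools and 1560.0 against 1400.4 in the male pools. In all 3, RNA A of the female pools was the lowest of the 4 values. Nid1 gave 11434 against 15009.7 in the female pools and 13206 against 12436 in the male pools, and Nid2 gave 3847 against 4259 and then 4277 against 3603. The mean log2 ratios of the 5 genes lay between -0.21 and 0.05, and none was past 1.5-fold on both arrays.

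Probes of the same gene, read in the same pools, were compared with each other. Of the 43 genes, 16 had more than 1 probe, and in 9 of these at least 2 probes reached a signal of 100 on both arrays. Their ratios differed by a median of 0.18 on array 1 and 0.13 on array 2. Lama2, Lama3, Itga1, Itga10, Itgb1 and Itgb6 kept the order of the RNAs on both arrays with either probe. For Itgav the order on array 2 turned with the probe, and the gap exceeded 0.5 on the log2 scale for 2 genes, Itga6 and Nid1. The 3 probes of Nid1, at bases 269, 4283 and 5938, gave 0.33, 0.18 and -0.39 on array 1, and -0.10, -0.25 and 0.09 on array 2. Its green-leaning value therefore came from the probe with the highest signal alone, at base 5938.

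**Figure D4:**
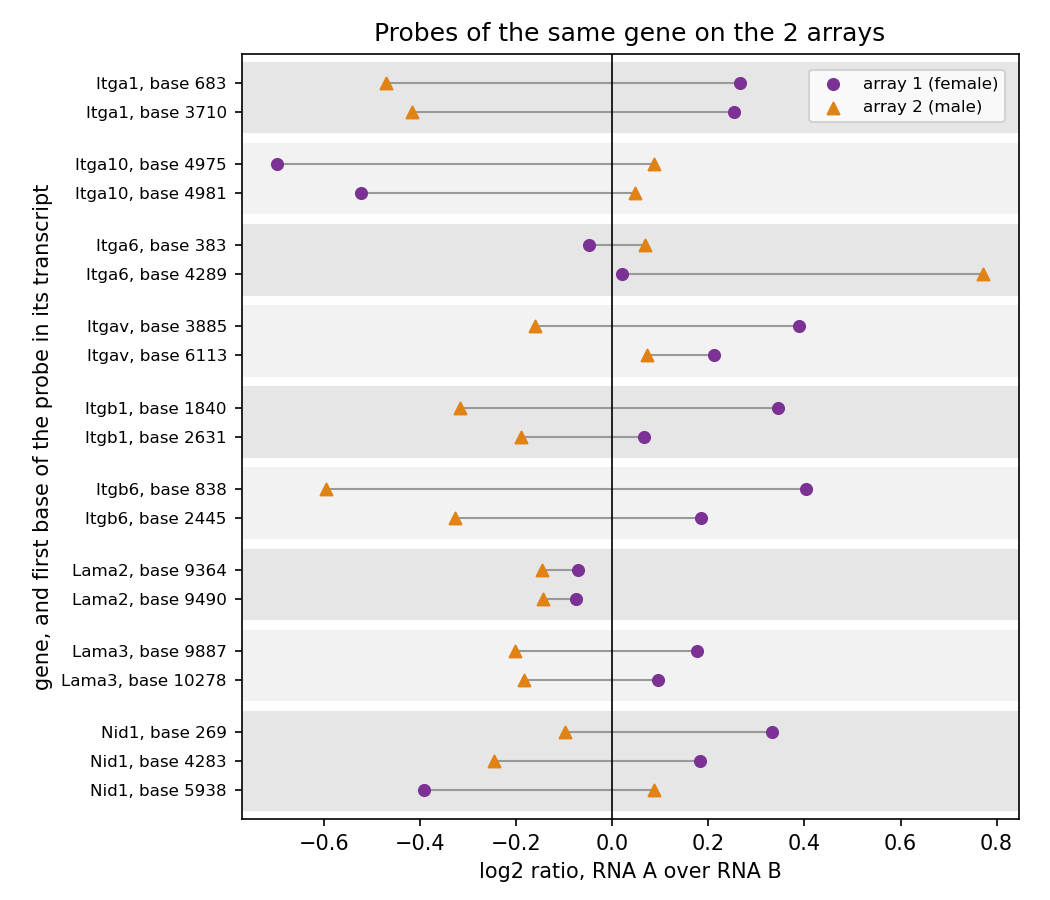
Log2 ratio of RNA A over RNA B on array 1 (purple circles) and array 2 (orange triangles) for every probe of the 9 genes with at least 2 probes at a signal of 100, named by gene and by the first base of the probe in its transcript. The probes of Lama2 and Itga1 lie on top of each other, whereas those of Itga6 separate on array 2 and those of Nid1 on array 1.

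Genes that work with integrins and laminins were counted by lists of their function. Of 26 other basement membrane components, 24 were tested, with 0 past the filter in a single direction, 0 called by limma and 0 with an unadjusted limma p under 0.05. They leaned to green as well, at 13 of 24 (54.2%), and Col15a1, a collagen of the basement membrane zone, was past 1.5-fold in opposite directions with 63 against 106 in the female pools and 101 against 66.7 in the male pools. Col18a1, the endostatin precursor, had 3241 against 5805 in the female pools and 4483 against 4129 in the male pools. Smoc2, a matricellular protein, averaged -0.20 ± 0.39 as log2 ratio (SD over the 2 arrays). Of 8 matrix proteases and inhibitors, 7 were tested and 0 called by limma, and 1 had an unadjusted limma p under 0.05. This was Mmp9, a gelatinase, with signals of 26.7 against 30.4 in the female pools and 18.8 against 38.3 in the male pools, below the threshold of 100. Its mean log2 ratio was -0.61, with an unadjusted limma p of 0.0350 and an adjusted p of 1.00. Mmp14 and Timp1 had means of -0.15 and 0.18.

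Among 12 integrin ligands of the interstitial matrix or of cell surfaces, 0 passed the filter in a single direction or the limma threshold. Spp1, which encodes osteopontin, a ligand of the alpha v, alpha4 and alpha9 integrins, had the widest ratio. Its signals were 465 for RNA A against 371 for RNA B in the female pools, then 463 against 161 in the male pools. RNA B of the male pools was the low value, and its mean of 0.92 ± 0.85 as log2 ratio (SD, n = 2 arrays) had an unadjusted limma p of 0.0105 and an adjusted p of 0.641. Madcam1, a ligand of the alpha4 beta7 integrin, had a mean of 0.33 ± 0.36.

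Of the 6 genes listed as hemidesmosome components or basal keratins, beside the integrin, 0 passed either test. For Krt5 and Krt14, the keratins of basal cells, RNA A was the brighter on either array. Krt5 had signals of 939 against 783 in the female pools and 1029 against 646 in the male pools, and Krt14 had 424 against 317 and then 409.9 against 303. With means of 0.47 ± 0.29 and 0.43 ± 0.012 (SD, n = 2 arrays), their adjusted limma p was 1.00 each. Itgb4 did not show that order on array 1.

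A list of 26 integrin adaptors and genes named after integrin subunits was tested in full, and 0 passed either test, with a median log2 ratio of -0.09. Vcl, which encodes vinculin, had 4553 against 5215 in the female pools and 4249 against 5961 in the male pools, and Itgb3bp, named for its binding to the beta3 subunit, had 2788 against 1773 and then 2812 against 2606. The 13 genes of the dystrophin complex had a median of -0.01. Of these, 1 had an unadjusted limma p under 0.05, namely Sntb1, a dystrophin-binding adaptor, with a mean of -0.50, a p of 0.0405 and an adjusted limma p of 1.00. Dmd (dystrophin) gave 319.6 against 269.6 in the female pools and 224 against 328 in the male pools. The 14 enzymes of dystroglycan glycosylation had a median of 0.03, with -0.18 for Pomt1. None of these genes was called by limma.

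The labelled tissue was checked by its markers. Of the epithelial, smooth muscle and mesenchymal markers, 10 of 10, 8 of 8 and 8 of 8 were well above background. Their median log2 ratios were -0.22, -0.57 and -0.02. Summed signals of the smooth muscle list were 80078 and 77749.9 in RNA A and 102039 and 133017 in RNA B on arrays 1 and 2, and those of the epithelial list were 83197 and 103899 in RNA A and 120691 and 116233 in RNA B. Both sums were thus higher in RNA B on both arrays. Gene by gene, RNA B was the brighter on both arrays for 6 of the 8 smooth muscle markers, the other 2 (Des and Smtn) being brighter in green on both. Of the 10 epithelial markers, 5 (Krt8, Krt18, Krt7, Upk1b and Upk2) had the higher signal in RNA B each time and 4 (Cdh1, Krt19, Trp63 and Foxa1) were brighter in green on both, so that the list had medians of -0.48 on array 1 and -0.05 on array 2. None of these 18 markers passed the filter in either direction. Among all genes with enough signal, 0.313% and 0.460% passed it for RNA A and RNA B. By limma, 6 of the 8 smooth muscle and 3 of the 10 epithelial markers had an unadjusted p under 0.05. Among all tested genes this share was 3.78%. None of the 18 markers was called after adjustment. The part of cell content in the ratios above was not tested. All 8 endothelial markers and 6 of 7 markers of glia and neurons were above background, with medians of 0.04 and 0.14. The platelet markers Gp1ba, Gp1bb and Gp5 were not well above background, nor were the nephron markers Nphs1, Umod and Slc12a1 or the mast cell markers Mcpt4, Tpsab1 and Ms4a2. Cpa3 and Cma1 of mast cells passed the filter in RNA A, with mean log2 ratios of 1.34 and 1.09. Slc34a1, of the proximal tubule, was called by limma in RNA B with signals of 6.2 and 4.2 in RNA A and 30.8 and 37.2 in RNA B.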

How the data were processed

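Per the file headers and the submitters' processing notes, Agilent Feature Extraction 10.7.3.1 made the deposited intensities, from which the authors' software had subtracted background and in which it had set surrogates for dim spots (array 1: 7.98% green, 15.2% red) and balanced the dyes linearly and by LOWESS. The deposited log10 ratios of red over green served as a check of the dyes. The deposited table of the authors holds a score per probe and array, a signed fold change with a median of 1 in both columns. Its scale is linear, no centring was seen, and its direction is not stated. Its values correlated with RNA A over RNA B at r = 0.997 on both arrays (18540 probes), and it was used as an alternative.

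Control spots and outlier spots (5705 and 5579 probe spots) were left out, and log2 processed intensities were averaged over the up to 4 spots of a probe. No spot was saturated. Genes were named through RefSeq (GRCm38.p6) for 28328 of 39429 probes and otherwise by the array annotation. A gene took its probe with the highest mean signal and was tested where at least 0.5 of the spots of 1 RNA were well above background on both arrays. limma 3.58.1 (R 4.3.3, intercept, eBayes) was fitted to the 2 log2 ratios of all 21429 tested genes, with Benjamini-Hochberg adjustment at 0.05. It was also run on simulated data with independent noise, which does not show how it performs on these arrays. An exact sign test over 2 arrays cannot go below p = 0.5. Both arrays shared a slide and a scan.

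The genes, the lists and the rule for naming genes (every gene of the set, Pparg, and of each list those past a threshold and the 2 with the largest mean ratio at a signal of 100) were chosen with earlier results of these data known. Values of 1 gene of the set, counted but not plotted, and of 2 listed genes are not reported here. Of the marker lists, the genes not above background are named. Alternatives were normexp (offset 50) with loess, loess on processed intensities, median centring, the deposited table, the mean over probes, other thresholds, dim probes kept, a trend with intensity and each array alone. Leaving out probes with CA repeats and preferring RefSeq probes were added after seeing the data. Plots were drawn with matplotlib 3.10.9.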

Additional observations from a re-analysis of the deposited data

Results flagged for a closer look

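Itgb4 moved in opposite directions in the female and the male pools. Its log2 ratio of RNA A over RNA B was -1.0 on array 1 and 0.74 on array 2, a difference of -1.74 (array 1 minus array 2). With 1 array per sex, the difference itself was not tested, and sex and dye cannot be told apart.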

How the results depend on the processing

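The counts of 0 genes of the set past the filter and 0 called by limma, in either direction, were 0 under all alternatives that kept both arrays, with lowest unadjusted limma p-values between 0.0978 and 0.163. Over all tested genes, the 27 and 40 limma calls in favour of RNA A and RNA B became 1 and 0 with normexp and loess, 8 and 20 with loess on processed intensities, and 0 and 0 both with the deposited table and with dim probes kept, so a limma count of 0 for the set says nothing about stability under those settings. The count of genes past 1.5-fold in opposite directions was 1, and became 3 with no intensity threshold (Itgad and Itgax, both not above background, joined Itgb4) and 0 at 2-fold. On a single array the filter gave between 0 and 2 genes brighter in RNA A (Itgb4 among them, without replicate 1) and between 0 and 7 brighter in RNA B (Hspg2, Itga3, Itga9, Itgb4, Lama5, Lamb3 and Lamc3 without replicate 2). The median log2 ratio of the set lay between -0.22 and 0.07 on single arrays and kept its sign under the other alternatives, from -0.12 to -0.10. Of 301 ratios of single genes under 7 alternatives, 290 moved by less than the SD between the arrays. Many of the 301 could not move, because only 16 of the 43 genes had more than 1 probe. For the rest, the alternatives on the choice of probe change nothing. That SD also holds the part of the ratios that turned with dye and sex, so the count of 290 is a lenient measure of stability. The exceptions of genes above background were Itga6 (0.20 as a mean over probes, 0.40 with RefSeq probes preferred), Itgb3 (-0.24 as a mean over probes, with a dim second probe) and Lama1 (-0.03 to -0.02, from -0.01). limma could not be run without a replicate, since 1 array leaves no residual degrees of freedom. No paired analysis was possible because there is no unpaired one to set it against: each array's ratio already pairs the pools of 1 sex, and the fit to these ratios is the paired fit. The number of arrays limits precision. Itga2, Itgal, Itgb2 and Itgb7 lie near background, where the ratio depends on the background step.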
